A study of Mus musculus and synthetic construct with 33 samples.

Results

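Genes of the fibroblast growth factor (FGF) system were followed in 4 organs of mouse embryos with and without the long noncoding RNA gene linc-p21. A gene entered the set if the deposited tables list it as protein-coding under a symbol made of Fgf and a number, other than Fgf12, or as Fgfr1 to Fgfr4, Fgfrl1, a Sprouty gene (Spry) or Dusp6. The rule found 30 of 26754 listed genes, of which 22539 are protein-coding: 15 secreted ligands, 3 endocrine ligands, 3 intracellular FGF homologous factors, 4 receptors, 1 receptor-like gene and 4 feedback genes. The tissues were heart, hindlimb, liver and lung at E14.5, a stage of midgestation counted in days after conception. Wild-type (WT) embryos were compared with embryos labelled KO for the allele Trp53cor1tm1.1Vlcg, on a background given as 129S6/C57BL/6 (N3, no Neo) for both genotypes, where N3 is not explained. Heart, hindlimb and lung had 3 WT and 3 KO libraries each, and liver had 5 WT and 4 KO libraries. WT and KO embryos shared 2 litters in lung, 1 in hindlimb and 3 each in heart and liver, and each group held both sexes. The KO allele is carried in every cell. An organ's RNA reports all of its cell types together, so fewer cells of a type cannot be told apart from less RNA per cell.

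FGF ligands bind receptor tyrosine kinases with the help of heparan sulfate on the cell surface, and the receptors signal largely through the RAS and ERK kinases. Sprouty proteins and the ERK phosphatase DUSP6 are switched on by this signal and dampen it, so their RNA is widely used as a readout of the pathway. In limb buds, FGFs of the ridge ectoderm and of the mesenchyme support each other and keep the limb growing. In the lung, FGF10 from the mesenchyme acts on FGFR2 in the epithelium and drives branching.

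Each value below is the authors' FPKM (sequenced fragments divided by transcript length and by library size), with 1 value per genotype and organ pooled over the libraries, so no spread between embryos can be given. Read depth is unknown. The 4 tables were scaled separately, and levels in different organs are therefore set side by side as a description. Trp53cor1, the official symbol of linc-p21, was 0.852, 0.710, 0.0351 and 0.104 FPKM in WT heart, hindlimb, liver and lung and was 0, 0, 0 and 0.00505 FPKM in KO. Summed WT levels of the cardiomyocyte markers (22852 FPKM in heart), hepatoblast markers (22831 in liver), lung epithelium markers (989 in lung) and hindlimb markers (185 in hindlimb) were highest in the organ of that name among the 4 organs.

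The hindlimb held the most secreted FGF RNA and the liver the least. Summed over the 15 secreted ligands, the level was 19.4 FPKM in WT heart, 55.0 in WT hindlimb, 2.43 in WT liver and 33.0 in WT lung. The KO sums were 22, 47.6, 3.27 and 31.2 FPKM, in the same order of organs. Of the 15 ligands, 4 reached 1 FPKM in WT heart, 7 in WT hindlimb, 0 in WT liver and 6 in WT lung. A single ligand led in each organ, and it was the same ligand in both genotypes: Fgf1 in heart with 51.5% of the WT sum and 54.4% of the KO sum, Fgf18 in hindlimb with 30.1% and 31.0%, Fgf1 in liver with 37.4% and 31.6%, and Fgf10 in lung with 41.4% and 39.6%. FPKM values are divided by transcript length, so levels of different genes can be added and compared on this scale.

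**Figure D1:**
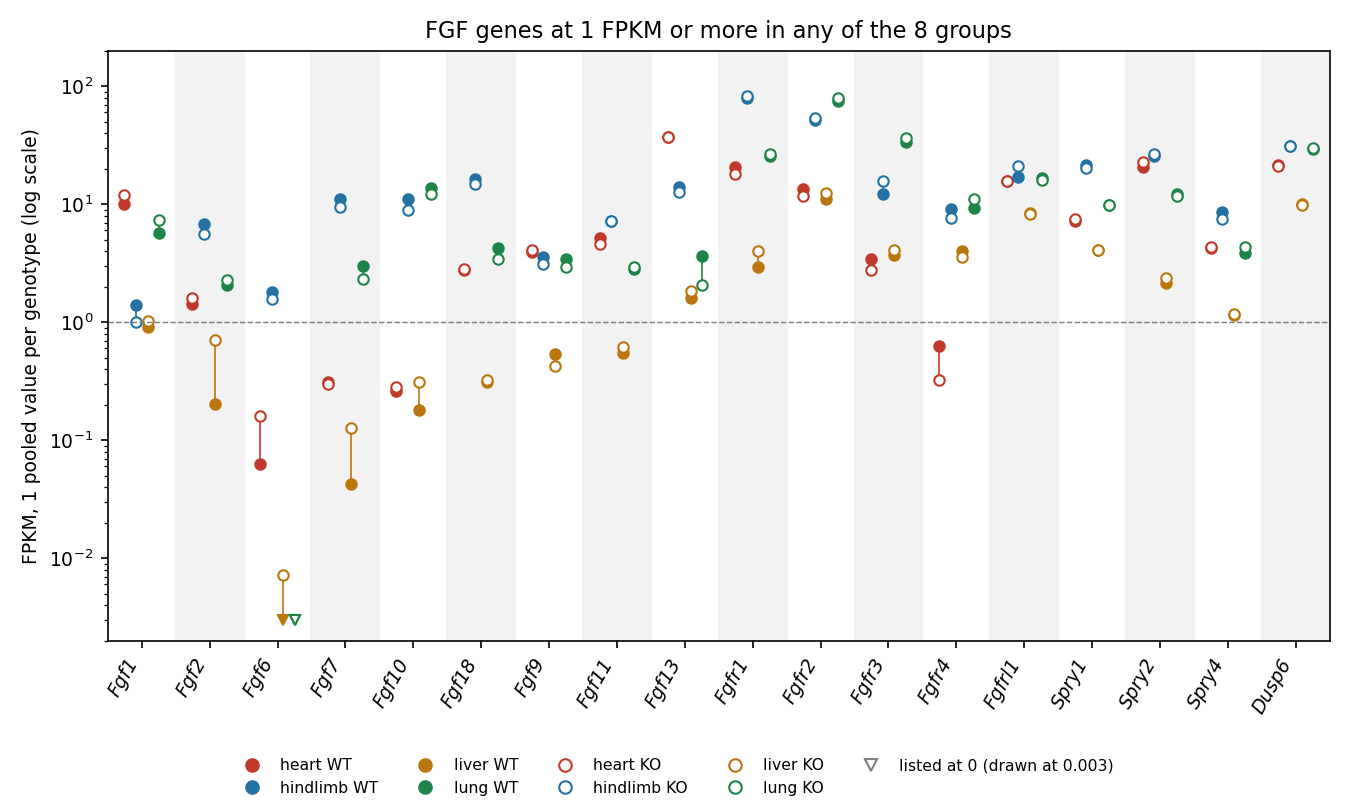
FPKM on a log scale for the 18 FGF genes that reached 1 FPKM in any of the 8 organ and genotype values, with filled circles for WT, open circles for KO and a line joining the pair. Each point is 1 pooled value, triangles mark values listed at 0, and the dashed line is 1 FPKM. For most genes the 2 genotypes of an organ sit close together, while organs lie far apart, as for Fgf7 and Fgf10.

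Fgf1 and Fgf2 lack a classical signal peptide and leave cells by an unconventional route. Fgf1 was at 9.99, 1.39, 0.906 and 5.72 FPKM in WT heart, hindlimb, liver and lung and at 12.0, 1.01, 1.03 and 7.32 FPKM in KO. Its heart values were 1.75 times the lung values in WT and 1.63 times in KO, and both lay above every value of the other organs. The order of hindlimb and liver, its lowest organs, turned between genotypes. Fgf2 had another pattern: WT values were 1.42, 6.81, 0.202 and 2.07 FPKM in heart, hindlimb, liver and lung, and KO values were 1.60, 5.64, 0.710 and 2.27 FPKM. It was highest in hindlimb and lowest in liver in both genotypes.

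Fgf7 and Fgf10 are mesenchymal ligands that act on the epithelial form of FGFR2. Fgf7 was at 0.310, 11.1, 0.0426 and 2.98 FPKM in WT heart, hindlimb, liver and lung and at 0.302, 9.56, 0.127 and 2.33 FPKM in KO. Hindlimb Fgf7 was 3.73 times lung Fgf7 in WT and 4.10 times in KO. Fgf10, which limb bud outgrowth and lung branching require, was at 0.261, 11.1, 0.179 and 13.7 FPKM in the WT organs and at 0.285, 8.89, 0.312 and 12.3 FPKM in the KO organs. The lung and the hindlimb thus had Fgf10 at similar levels, with lung over hindlimb at 1.23 in WT and 1.39 in KO, and hindlimb over heart at 42.4 in WT and 31.2 in KO. The other members of this subfamily, Fgf3 and Fgf22, were below 1 FPKM in all 8 values. Exons of Fgf10 share 123 bases, or 2.67% of its exon length, with Gm16263 on the opposite strand.

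Fgf18, which regulates cartilage and bone formation and is made in lung mesenchyme, was the most abundant ligand of the hindlimb. Its WT values were 2.78, 16.5, 0.314 and 4.22 FPKM in heart, hindlimb, liver and lung, and its KO values were 2.84, 14.8, 0.327 and 3.46 FPKM. Hindlimb exceeded lung by 3.92 times in WT and 4.27 times in KO. Fgf9, which is made by epithelia and mesothelium and signals to mesenchyme, had the most even levels outside the liver among the secreted ligands that passed 1 FPKM. It was at 3.93, 3.57, 0.543 and 3.45 FPKM in WT heart, hindlimb, liver and lung and at 4.13, 3.14, 0.426 and 2.93 FPKM in KO. The hindlimb and lung values of Fgf9 overlapped when both genotypes were taken as 2 pooled values per organ. Fgf6, a ligand of developing skeletal muscle, passed 1 FPKM in hindlimb alone, at 1.81 FPKM in WT and 1.56 FPKM in KO. It was at 0.0627 and 0.161 FPKM in heart, at 0 and 0.00719 FPKM in liver and listed at 0 in lung in both genotypes.

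The remaining 8 secreted ligands (Fgf3, Fgf4, Fgf5, Fgf8, Fgf16, Fgf17, Fgf20 and Fgf22), the 3 endocrine ligands and intracellular Fgf14 were below 1 FPKM in all their values. Of these 96 values, 21 were listed at 0 and 6 reached 0.5 FPKM. Fgf16 in hindlimb was the highest, at 0.748 FPKM in WT and 0.788 FPKM in KO. Fgf8, a defining ligand of the apical ectodermal ridge, was at 0.200, 0.218, 0 and 0.103 FPKM in WT heart, hindlimb, liver and lung and at 0.234, 0.627, 0.0356 and 0 FPKM in KO. Fgf4, another ridge-associated ligand, was at 0.489 and 0.416 FPKM in WT and KO hindlimb. Other members at low levels in hindlimb were Fgf5 (0.659 FPKM in WT and 0.512 in KO) and Fgf20 (0.306 and 0.386), whose exons share 12.0% of their length with Micu3 on the opposite strand.

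Endocrine FGFs signal at a distance through Klotho co-receptors. Fgf23, the hormone of phosphate balance, was at 0.531 and 0.408 FPKM in WT and KO heart and below 0.1 FPKM elsewhere. Fgf21, a metabolic hormone of the adult liver, was at 0.00676 and 0.0101 FPKM in WT and KO liver and at 0.429 and 0.285 FPKM in hindlimb. Fgf15, the intestinal hormone that lowers bile acid synthesis, was at 0.0152 FPKM or less in all 8 values. Klb, which encodes beta-Klotho, was at 9.25 FPKM in WT liver and 8.54 FPKM in KO liver. The co-receptor RNA was thus present in liver, although the endocrine ligands were near 0 there. These ligands were below 0.1 FPKM in lung as well.

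The FGF homologous factors stay inside the cell and bind voltage-gated sodium channels. Fgf13 was above every ligand in heart and liver, but below Fgf18 in hindlimb and below Fgf10, Fgf1 and Fgf18 in lung. In KO lung Fgf13 was also below Fgf9, Fgf7 and Fgf2. It was at 37.2, 14.1, 1.60 and 3.64 FPKM in WT heart, hindlimb, liver and lung and at 37.3, 12.8, 1.86 and 2.08 FPKM in KO. Its heart values were 2.63 times the hindlimb values in WT and 2.91 times in KO. Fgf11 was at 5.16, 7.25, 0.553 and 2.81 FPKM in the WT organs and at 4.65, 7.18, 0.612 and 2.91 FPKM in the KO organs. Fgf14 was highest in heart, at 0.440 FPKM in WT and 0.347 FPKM in KO.

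The balance of Fgfr1 and Fgfr2 separated heart and hindlimb from liver and lung. Fgfr1, the main receptor of mesenchymal cells, was at 20.7, 79.4, 2.95 and 25.7 FPKM in WT heart, hindlimb, liver and lung and at 18.1, 82.9, 4.00 and 26.8 FPKM in KO. Fgfr2, whose alternative exons give an epithelial and a mesenchymal form, was at 13.4, 51.6, 11 and 74.8 FPKM in the WT organs and at 11.6, 54.0, 12.5 and 78.8 FPKM in the KO organs. The ratio of Fgfr1 to Fgfr2 was 1.54 in WT heart and 1.54 in WT hindlimb, against 0.268 in WT liver and 0.343 in WT lung. In KO the same ratios were 1.55, 1.54, 0.320 and 0.340. Hindlimb Fgfr1 was 3.10 times lung Fgfr1 in WT and 3.09 times in KO, and lung Fgfr2 was 1.45 times hindlimb Fgfr2 in WT and 1.46 times in KO. The tables give 1 value per gene, so the epithelial and mesenchymal forms are not separated. Exons of Fgfr2 share bases with Ctbp2, as described below, and the part of Ctbp2 reads in these Fgfr2 values and ratios was not tested.

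Fgfr3, which restrains the growth of cartilage, was at 3.46, 12.3, 3.72 and 33.9 FPKM in WT heart, hindlimb, liver and lung and at 2.75, 15.8, 4.09 and 36.4 FPKM in KO. Fgfr4, known as the FGF receptor of hepatocytes, was at 0.632, 9.04, 4.02 and 9.35 FPKM in the WT organs and at 0.325, 7.71, 3.60 and 11.1 FPKM in the KO organs. In liver Fgfr4 had a larger share of receptor RNA than elsewhere, although its level there was below that of hindlimb and lung. Fgfr1, Fgfr2, Fgfr3 and Fgfr4 made up 13.6%, 50.7%, 17.1% and 18.6% of summed receptor FPKM in WT liver. In WT lung the same shares were 17.9%, 52.0%, 23.6% and 6.51%, in WT hindlimb 52.1%, 33.9%, 8.05% and 5.94%, and in WT heart 54.1%, 35.2%, 9.05% and 1.65%. Summed receptor RNA was 38.2, 152, 21.7 and 144 FPKM in the WT organs and 32.8, 160, 24.2 and 153 FPKM in the KO organs, in the order heart, hindlimb, liver and lung. Liver thus had the lowest receptor sum as well as the lowest ligand sum in both genotypes.

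**Figure D2:**
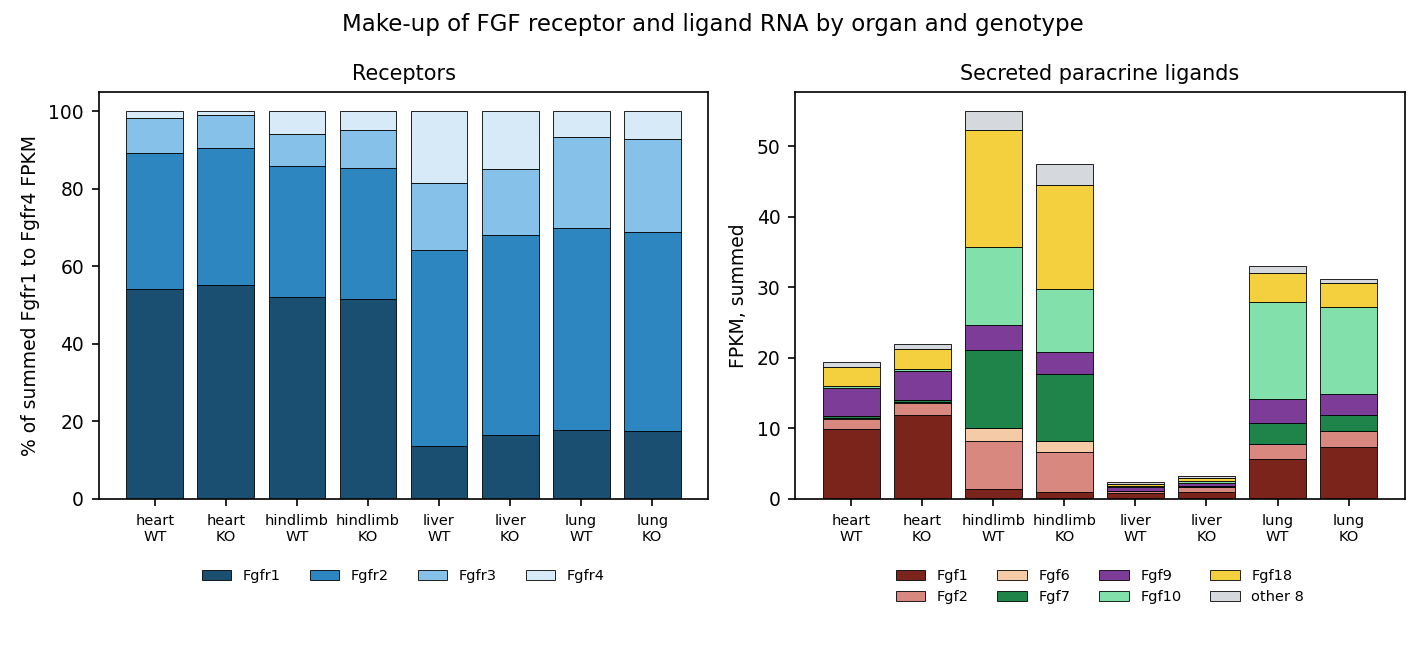
Left, the percentage of summed FPKM contributed by each of the 4 receptors in each organ and genotype, 1 pooled value per bar. Right, FPKM of the secreted ligands stacked to their sum, from 2.43 in WT liver to 55.0 in WT hindlimb, with the 8 ligands below 1 FPKM in grey. Fgfr1 takes the largest receptor share in heart and hindlimb and Fgfr2 in liver and lung, in both genotypes. The part of Ctbp2 reads in the Fgfr2 share was not tested.

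Fgfrl1 encodes a receptor-like protein that lacks the kinase domain. Its level varied least between organs among the receptor genes, at 15.7, 16.9, 8.51 and 16.6 FPKM in WT heart, hindlimb, liver and lung and at 15.8, 21, 8.23 and 15.9 FPKM in KO. The Fgfr2 gene model in the tables is unusual: its longest isoform spans 2960900 bases against 103734 bases for the next, and 314 of its exon bases (4.41%) are shared with Ctbp2 on the same strand. Ctbp2 was at 44.1, 31.6, 11.2 and 65.2 FPKM in WT heart, hindlimb, liver and lung. How reads from the shared bases were divided was not given in the sources used here. The ratios of Fgfr1 to Fgfr2, the receptor shares and sums and the organ order of Fgfr2 all rest on this gene model.

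The feedback genes were expressed in all 4 organs and were lowest in liver. Spry1 was at 7.20, 21.5, 4.13 and 9.78 FPKM in WT heart, hindlimb, liver and lung and at 7.48, 20.4, 4.13 and 9.93 FPKM in KO. Spry2 was at 20.6, 25.9, 2.13 and 12.2 FPKM in the WT organs and at 22.9, 26.5, 2.39 and 11.7 FPKM in the KO organs. Of these paralogous inhibitors, Spry2 was the more abundant in heart, hindlimb and lung and Spry1 in liver, in both genotypes. Spry4 was at 4.22, 8.52, 1.16 and 3.87 FPKM in WT heart, hindlimb, liver and lung and at 4.38, 7.45, 1.17 and 4.38 FPKM in KO. Dusp6, the phosphatase that removes the activating phosphates of ERK, was at 21.4, 31.4, 10.1 and 29.7 FPKM in the WT organs and at 21.3, 31.4, 9.83 and 30.2 FPKM in the KO organs. Hindlimb and lung differed in Dusp6 by 1.06 times in WT and 1.04 times in KO. Spry3 is not analysed here.

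The feedback genes are the transcriptional readout of the pathway, and for this reason the 250 bases before the start site of 3 of them are shown. The sequences are from RefSeq on GRCm38.p6, 5′ to 3′ on the strand of the gene, with each CG dinucleotide in capitals. Dusp6 is at chr10:99262981-99263230 on the plus strand, Spry1 at chr3:37639697-37639946 on the plus strand and Spry2 at chr14:105896820-105897069 on the minus strand.
Dusp6: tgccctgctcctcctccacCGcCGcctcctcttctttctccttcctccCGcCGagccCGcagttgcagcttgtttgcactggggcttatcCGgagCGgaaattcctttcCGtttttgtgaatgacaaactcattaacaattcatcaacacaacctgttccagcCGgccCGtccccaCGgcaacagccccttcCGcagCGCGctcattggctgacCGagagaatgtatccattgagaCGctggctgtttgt
Spry1: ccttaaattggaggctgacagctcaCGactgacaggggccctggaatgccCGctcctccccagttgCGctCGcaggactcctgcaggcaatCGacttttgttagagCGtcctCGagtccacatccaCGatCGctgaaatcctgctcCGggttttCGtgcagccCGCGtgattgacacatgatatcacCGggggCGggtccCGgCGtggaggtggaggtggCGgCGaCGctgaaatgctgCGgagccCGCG
Spry2: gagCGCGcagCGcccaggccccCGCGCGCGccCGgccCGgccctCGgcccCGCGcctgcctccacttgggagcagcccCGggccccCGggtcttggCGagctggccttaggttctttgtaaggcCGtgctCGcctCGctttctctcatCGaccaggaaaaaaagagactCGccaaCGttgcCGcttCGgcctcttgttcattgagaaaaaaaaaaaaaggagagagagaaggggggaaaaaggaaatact
The windows held 16, 23 and 23 CG dinucleotides, against a median of 6 over all 32851 RefSeq promoters of this length and of 15 over the 26 windows that matched 22 members. Of all promoters 25.4% had 16 or more CG dinucleotides, and of the member windows 12 of 26 (46.2%) did. ETS factors act downstream of ERK, and the letters CCGGAA or, on the other strand, TTCCGG were searched as one form of their core. None of the 3 windows held them, 3 of 26 member windows did (11.5%; Fgf5, Fgfr4 and Fgfrl1), and 12% of all promoters did. The motif contains a CG dinucleotide and so overlaps with the other count, and a window without these letters says nothing about binding.

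The genes named below for their genotype values lie in mm10 on chromosome 19 (Fgf8, 45736798 to 45742915, minus strand), chromosome 13 (Fgf10, 118669791 to 118792115, and Fgfr4, 55152640 to 55168759, both plus) and chromosome 5 (Fgfr3, 33721724 to 33737068, and Fgfrl1, 108694229 to 108706950, both plus). Fgf2 lies on chromosome 3 (37312519 to 37405377, plus strand), Fgfr1 on chromosome 8 (25513654 to 25575714, plus), Fgf13 on chromosome X (59062145 to 59568071, minus) and Fgf21 on chromosome 7 (45613907 to 45615490, minus). None is on chromosome 17, which carries Trp53cor1. Some members lie near each other. Fgf3, Fgf4 and Fgf15 follow one another on chromosome 7 with gaps of 16949 and 31288 bases, and Fgf6 and Fgf23 lie 48183 bases apart on chromosome 6. These neighbours did not share a pattern: Fgf6 was highest in hindlimb and Fgf23 in heart. Fgf2 and Spry1 are 234569 bases apart on chromosome 3 and were both highest in hindlimb. Fgf1 and Spry4, 237404 bases apart on chromosome 18, were highest in heart and hindlimb.

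The organ order was compared between genotypes, with the KO value as a second pooled value of the same organ. On the deposited scale, all 18 members that reached 1 FPKM in any value had the same highest organ in both genotypes, and in all 18 both values of that organ lay above all values of the other organs. Among 15622 listed genes that reached 1 FPKM in any value these shares were 83.9% and 78.1%. The full order of 4 organs was the same for 14 of the 18 members, and Fgf1, Fgf10, Fgfr2 and Spry4 had neighbours in the order that changed places. Of the 18 members, 11 were highest in WT hindlimb, where 26.6% of the 15622 genes were highest. Heart was highest for 3 members (Fgf1, Fgf9 and Fgf13; 20.1% of all genes), lung for 4 (Fgf10, Fgfr2, Fgfr3 and Fgfr4; 29.0%) and liver for 0 (24.3%). Liver was the lowest organ for 15 of 18 members, where 49.4% of all genes were lowest. With FPKM rescaled to a common sum 17 of 18 members had the same highest organ in both genotypes, since the highest organ of Fgfr4 in WT moved from lung to hindlimb and in KO stayed lung, giving 12 members highest in hindlimb (38.2% of all genes) and 16 lowest in liver (54.8%). With scaling by the median ratio 16 of 18 did, since Fgfr4 moved to hindlimb and Fgfrl1 to heart in WT alone, giving 11 highest in hindlimb (26.6%) and 15 lowest in liver (42.4%).

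The study's own comparison asked whether RNA levels in each organ differed between KO and WT embryos. No FGF gene was called in any organ at a q-value under 0.05 in the authors' deposited table. The authors tested 14 members in liver, 17 in lung, 19 in heart and 25 in hindlimb, or 75 of 120 pairs of member and organ, and 14 members were tested in all 4 organs. The counts were 0 of 14 members in liver, where 0.406% of all tested genes were called, 0 of 17 in lung (0.707%), 0 of 19 in heart (0.228%) and 0 of 25 in hindlimb (0.623%), so that the members were near the background. At an unadjusted p under 0.05 the authors' deposited table had 2 of 14 members in liver (2.79% of all tested genes), 1 of 17 in lung (4.68%), 0 of 19 in heart (2.95%) and 4 of 25 in hindlimb (5.97%). Of the 75 tested pairs, 70 lay within 0.5 on the log2 scale. Among tested genes at 1 FPKM or more in either genotype, 14 of 14 members did in heart (96.8% of all such genes) and 18 of 18 in hindlimb (95.2%). In liver 11 of 11 did (97.2%) and in lung 16 of 17 (96.4%), so the members were near the background here too. Fgf3, Fgf15, Fgf17 and Fgf22 were tested in no organ.

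Across the tested members the median log2 fold change of KO over WT was 0.14 in liver, 0.03 in lung, 0.00 in heart and -0.14 in hindlimb in the authors' deposited table. With 1 FPKM added to each value the medians were 0.07 in liver and -0.07 in hindlimb. The medians over all tested genes lay between -0.01 in heart and 0.01 in hindlimb. In hindlimb 8 members had a higher and 17 a lower value in KO, against 9 and 5 in liver, 10 and 7 in lung and 10 and 9 in heart. The median size of the log2 fold change, without its sign, was 0.15, 0.21, 0.16 and 0.13 for members in heart, hindlimb, liver and lung and 0.13, 0.12, 0.09 and 0.12 for all tested genes. These counts and medians describe the list and are no test of it.

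**Figure D3:**
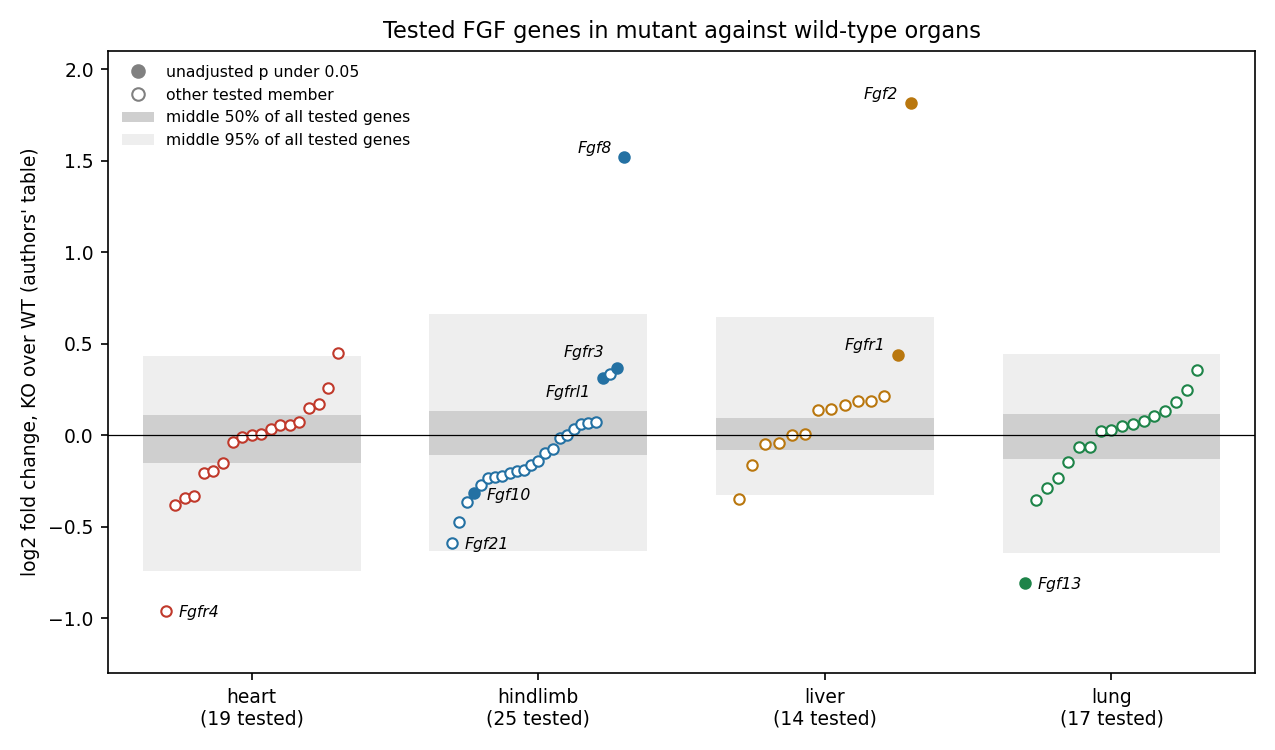
Log2 fold changes, KO against WT, in the authors' deposited table for each tested FGF gene, ordered within each organ, with filled circles where the unadjusted p is under 0.05. Grey bands hold the middle 50% and 95% of all tested genes of the organ. Named are the 9 points with an unadjusted p under 0.05 or a change of at least 0.5, and no point has a q-value under 0.05.

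Dusp6 and Spry1 had nearly equal values in KO and WT. Log2 fold changes of Dusp6 ran from -0.04 to 0.03 over the 4 organs in the authors' deposited table, those of Spry1 from -0.08 to 0.06, those of Spry2 from -0.06 to 0.17 and those of Spry4 from -0.19 to 0.18. Receptors ran from -0.19 to 0.44 for Fgfr1, from -0.21 to 0.19 for Fgfr2, from -0.33 to 0.37 for Fgfr3 and from -0.96 to 0.25 for Fgfr4 in the authors' deposited table. A q-value above 0.05 does not show that levels were equal, and the tables give no interval for the fold changes.

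Hindlimb held 4 of the 7 pairs with an unadjusted p under 0.05. Fgf8 was 0.218 FPKM in WT and 0.627 FPKM in KO, a log2 fold change of 1.52 (p = 0.0063, q = 0.291) in the authors' deposited table. Both values are below 1 FPKM, and with 1 FPKM added to each the log2 fold change of Fgf8 was 0.42. The other genes listed with Fgf8 as ridge markers had similar values in both genotypes. In WT and KO hindlimb Dlx5 was 9.80 and 9.0 FPKM and Dlx6 2.99 and 2.94. Wnt7a was 2.74 and 2.85, En1 1.42 and 1.35, and Sp8 0.283 and 0.291. The summed ridge list, Fgf8 included, was 17.4 FPKM in WT and 17.1 FPKM in KO, and 0 of its 6 members were called. Dlx5 made up most of this sum. Whether the listed genes mark the ridge at E14.5, alone or at all, was not tested, so the sum is no measure of ridge tissue. Fgf10, which exchanges signals with Fgf8 in the limb bud, was 11.1 FPKM in WT and 8.89 FPKM in KO (log2 fold change -0.32, p = 0.0303, q = 0.669) in the authors' deposited table. Summed mesenchyme markers were 3179 FPKM in WT hindlimb and 2417 FPKM in KO, with 2 higher, 3 lower and 0 called of 5 tested, and skeletal muscle markers 1185 and 808 FPKM, with 7 of 7 lower and 2 called. The list of hindlimb genes (Pitx1, Tbx4, Hoxd13, Hoxa13, Msx1 and Prrx1) went the other way, summing to 185 FPKM in WT and 236 FPKM in KO with 6 of 6 higher and 0 called. The part of these tissues in the Fgf10 values was not tested.

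The receptors Fgfr3 and Fgfrl1 had higher values in KO hindlimb. Fgfr3 was 12.3 FPKM in WT and 15.8 FPKM in KO (log2 fold change 0.37, p = 0.0164, q = 0.484) in the authors' deposited table. Fgfrl1 was 16.9 FPKM in WT and 21 FPKM in KO (log2 fold change 0.31, p = 0.0259, q = 0.624) in the authors' deposited table. Cartilage markers were also at higher values, summing to 346 FPKM in WT hindlimb and 410 FPKM in KO, with 5 of 6 higher and Sox9 called (12.7 and 19.2 FPKM). The hindlimb genes listed beside Fgf10 were also at higher values, 6 of 6. The part of these tissues in the receptor values was not tested. Fgf21 was 0.429 FPKM in WT and 0.285 FPKM in KO, a log2 fold change of -0.59 (p = 0.207, q = 1.0) in the authors' deposited table, and of -0.15 with 1 FPKM added to each value.

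In liver the 2 pairs under that p were Fgf2 and Fgfr1. Fgf2 was 0.202 FPKM in WT and 0.710 FPKM in KO, a log2 fold change of 1.81 (p = 0.0173, q = 1.0) in the authors' deposited table. With 1 FPKM added to each value it was 0.51. Exons of Fgf2 share 242 bases (13.4%) with Nudt6 on the opposite strand, which was 5.06 FPKM in WT liver and 4.05 FPKM in KO liver. They also share 55 bases (3.05%) with Cetn4 on the opposite strand, at 2.51 FPKM in WT liver and 3.39 FPKM in KO liver. A further 32 bases (1.78%) are shared with Bbs12 on the same strand, at 5.01 and 5.06 FPKM. The library kit named in the labels' protocols does not mark strand, so reads from the shared bases cannot be told apart. Fgfr1 was 2.95 FPKM in WT liver and 4.00 FPKM in KO liver (log2 fold change 0.44, p = 0.0182, q = 1.0) in the authors' deposited table. Mesenchyme markers summed to 139 FPKM in WT liver and 188 FPKM in KO, with 6 of 6 higher and 1 called. Markers of gut and smooth muscle summed to 29.0 and 47.0 FPKM (6 of 6 higher, 4 called), and those of pancreatic acinar cells to 11 and 58.0 FPKM (6 of 6 tested higher, 4 called). The part of these cells in the liver values of Fgf2 and Fgfr1 was not tested.

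Lung had 1 such pair. Fgf13 was 3.64 FPKM in WT and 2.08 FPKM in KO, a log2 fold change of -0.81 (p = 0.0102, q = 0.566) in the authors' deposited table. Heart had the highest Fgf13 of the 4 organs, and cardiomyocyte markers differed between the lung groups. Their sum was 773 FPKM in WT lung and 32.7 FPKM in KO lung, with 10 of 10 lower and 8 called, and Nppa, an atrial hormone gene that was not called, was 62.0 FPKM in WT and listed at 0 in KO. Other lists were lower in KO lung too: hepatoblast (3 of 3 tested, 2 called), skeletal muscle (4 of 4, 2 called), epidermis (5 of 5, 1 called), mesothelium (4 of 4, 0 called) and erythroid (6 of 6, 0 called). Endothelium (4 of 5), lung epithelium (5 of 8) and mesenchyme (4 of 6) were among those with more genes higher, with 0 called. The part of cardiomyocyte RNA, or of these other tissues, in the Fgf13 value was not tested. Fgf1, also highest in heart, was 5.72 FPKM in WT lung and 7.32 FPKM in KO lung.

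In heart no member passed an unadjusted p under 0.05. Among the 19 tested members Fgfr4 had the largest fold change there, from 0.632 FPKM in WT to 0.325 FPKM in KO (log2 fold change -0.96, p = 0.0549, q = 1.0) in the authors' deposited table. With 1 FPKM added to each value it was -0.30. Hepatoblast markers summed to 19.4 FPKM in WT heart and 4.50 FPKM in KO heart, with 4 of 4 tested lower and 2 called. The same markers summed to 22831 FPKM in WT liver, where Fgfr4 was 4.02 FPKM. The part of liver RNA in the heart value of Fgfr4 was not tested.

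**Figure D4:**
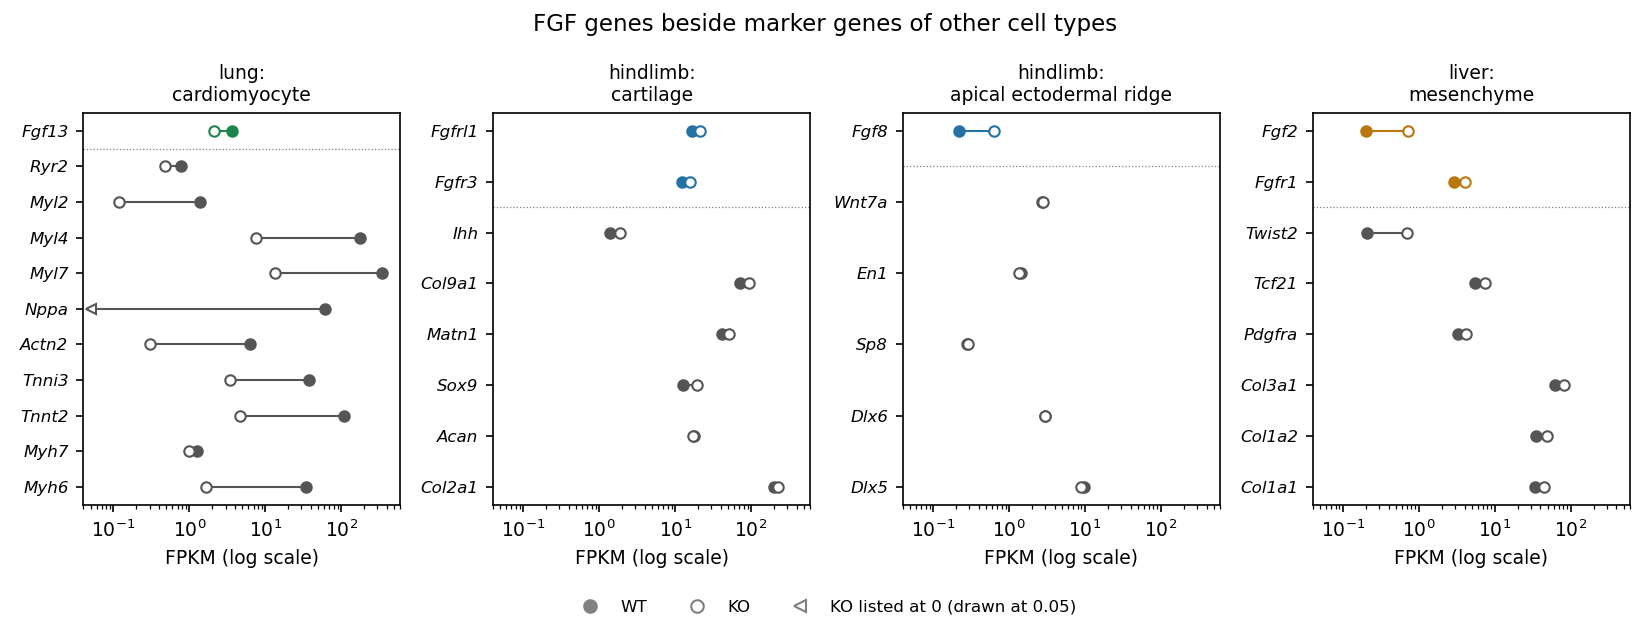
FPKM on a log scale in WT (filled) and KO (open) of 6 of the 7 FGF genes with an unadjusted p under 0.05 (Fgf10 is not drawn), above the dotted line and coloured by organ, and of cell type markers in the same organ, below it. Fgf13 is shown with cardiomyocyte markers in lung, and Fgf2 and Fgfr1 with mesenchyme markers in liver. In hindlimb, Fgfrl1 and Fgfr3 are shown with cartilage markers and Fgf8 with the other genes of the ridge list. Cardiomyocyte markers are lower in all 10 cases in KO lung. Genes of the ridge list other than Fgf8 lie at nearly the same level in both genotypes.

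A list of 58 further genes, called pathway genes here, was set beside the members, and 57 were found. It ran from ETS factors and Ras and ERK kinases to heparan sulfate proteins and co-receptors. Fgfr1op and Fgfr1op2, which bear the name of Fgfr1, were counted in it, and whether they act in the pathway was not tested. The authors' deposited table called 1 of 55 tested in liver (0.406% of all tested genes), 0 of 55 in lung (0.707%), 0 of 54 in heart (0.228%) and 0 of 55 in hindlimb (0.623%). The called gene was Sulf1, an enzyme that trims sulfate from heparan sulfate and alters FGF binding. Sulf1 was 4.10 FPKM in WT liver and 6.15 FPKM in KO liver (log2 fold change 0.58, p = 5e-05, q = 0.0140) in the authors' deposited table. This p is the smallest deposited in liver, and other liver genes at this p share the q-value. Flrt2, a membrane protein that can bind FGF receptors, was 1.32 FPKM in WT liver and 2.1 FPKM in KO liver (log2 fold change 0.67, p = 0.00215, q = 0.279) in the authors' deposited table. Mesenchyme markers (6 of 6 higher, 1 called) and markers of gut and smooth muscle (6 of 6 higher, 4 called) were at higher values in the same KO livers, and their part in the Sulf1 and Flrt2 values was not tested. Fgfbp1, a carrier that releases FGFs from the matrix, was 39.6 FPKM in WT hindlimb and 27.6 FPKM in KO hindlimb (log2 fold change -0.52, p = 0.0012, q = 0.110) in the authors' deposited table. Epidermal markers were also lower in that organ, at 860 and 673 FPKM summed, with 5 of 5 lower and 1 called, and their part in the Fgfbp1 value was not tested. Pathway genes at an unadjusted p under 0.05 numbered 4 of 55 in liver (2.79% of all tested genes), 1 of 55 in lung (4.68%), 2 of 54 in heart (2.95%) and 1 of 55 in hindlimb (5.97%) in the authors' deposited table. Smallest p-values of the other organs belonged to Fgfbp3 in heart (log2 fold change -0.69, p = 0.00815) and Gpc6, a glypican, in lung (0.31, p = 0.0345) in the authors' deposited table. Next to them were Cbl, a ubiquitin ligase for activated receptors, in heart (-0.34, p = 0.0338) and lung (0.23, p = 0.116), and Flrt2 in hindlimb (0.24, p = 0.0809), in the authors' deposited table.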

How the data were processed

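PolyA RNA of 27 organ libraries was sequenced after TruSeq RNA v2 preparation (labels' protocols). CASAVA 1.8.2, TopHat2 and the build mm10 are in the submitters' processing notes. The authors pooled the libraries of a genotype into 1 FPKM value per gene, per the file headers. Log2 fold changes and test statistics, both entered here as scores with no fixed range, were deposited with a p-value and a q-value of KO against WT. The program behind these columns was not given in the sources used here, and read depth is unknown. Adjusting the deposited p-values by the Benjamini-Hochberg method gave the deposited q-values to within 5.2e-07.

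Each table has 569958 exon rows, reduced here to 26754 genes (Python 3.11.15, pandas 2.3.3). A call is a deposited q-value under 0.05. The tables hold no value per library, so no further test, standard deviation, replicate left out or litter block was possible. What spread the p-values measure is not known, since the program behind them was not given. Some of the libraries share a litter. Members with an unadjusted p under 0.05 or a log2 fold change of at least 0.5 are given with their statistics; members at 1 FPKM or more, or with such a p, are given in full. Pathway genes are named where called or among the 2 smallest p-values of an organ. Where Flrt3 is listed under 2 identifiers the more abundant was used. Members, pathway genes and marker lists were chosen with earlier results of these data known. Promoters were matched by symbol to RefSeq on GRCm38.p6, for 22 of 30 members. The adjustment was tested on simulated data. The reporter assay of the series was not used here.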

Additional observations from a re-analysis of the deposited data

How the results depend on the processing

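Counts of called members, of called pathway genes and of members detected, the median log2 fold changes, and the number of members with an unchanged highest organ were recomputed in 46 alternatives: a q threshold of 0.1, adjustment over genes at 1 FPKM or more or without chromosome 17, pseudocounts of 0.1 and 1, centring, members at 1 FPKM or more alone, detection at 0.5 or 2 FPKM, and 2 other scalings of the organs. Every median kept its sign. The counts, which have no sign, stayed within 1.5 times, and those of called members were 0 in every setting. Medians moved more: with a pseudocount of 1 the hindlimb median went from -0.14 to -0.07 and the liver median from 0.14 to 0.07. The heart median went from 0.0023 to 0.018 among members at 1 FPKM or more and to 0.017 with centring. For single members 27 alternatives were run, and 9 moved the value. All 27 kept their sign, which a pseudocount cannot change for a single gene. The 9 belong to Fgf8, Fgf2, Fgfr4, Fgf21 and Fgf13 under the pseudocounts. With a pseudocount of 1 the log2 fold change of Fgf8 in hindlimb was 0.42, that of Fgf2 in liver 0.51 and that of Fgf13 in lung -0.59, against 1.52, 1.81 and -0.81 in the authors' deposited table. No paired analysis was possible because the tables hold 1 pooled value per genotype and organ, and for the same reason leaving out single replicates was not run.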
